A study of Homo sapiens with 20 samples.

Results

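The genes of the respiratory chain were examined in 5 human multiple myeloma cell models, each given indirubin-3'-monoxime (I3MO) or its vehicle DMSO. The rule for members was set with earlier results of these data known. Under it, members were taken by symbol: protein-coding genes for subunits of complexes I to V and a few factors that share their naming (NDUFA to NDUFV, SDHA to SDHD, UQCR, CYC1, COX4 to COX8, ATP5 and the mitochondrially encoded MT-ND, MT-CO, MT-ATP and MT-CYB genes). This gave 102 of the 60483 listed genes, 13 encoded in mitochondrial DNA and 89 in the nucleus. The mitochondrial genes are 7 of complex I, 1 of complex III, 3 of complex IV and 2 of complex V. The nuclear genes are 37 of complex I, 4 of complex II, 10 of complex III, 17 of complex IV and 21 of complex V. NDUFA4 is counted with complex I by its name, although the protein is now placed in complex IV.

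The models were the myeloma lines ANBL6, ARP1, RPMI8226 and U266, and ANBL6BR, which the labels describe as bortezomib resistant ANBL6. Bortezomib inhibits the proteasome. I3MO, an indirubin derivative known as a kinase inhibitor and as a ligand of the aryl hydrocarbon receptor, was given at 5 µM to ANBL6 and ANBL6BR and at 10 µM to ARP1, RPMI8226 and U266. The labels give bone marrow as the source, total RNA as the material and 2 libraries in each of the 10 groups. The duration of treatment, the way in which resistance was raised and the origin of replicates from separate cultures are not given in the sources used here, so p-values measure only the spread between these libraries, which may be technical. In RNA from whole cultures, fewer cells with a transcript and less of it per cell cannot be told apart.

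Oxidative phosphorylation moves electrons from NADH (complex I) and succinate (complex II) through ubiquinone to complex III, on through cytochrome c to complex IV and oxygen, and uses the resulting proton gradient to make ATP at complex V. Complexes I, III, IV and V are built from subunits of both genomes, and only complex II is wholly nuclear. The mitochondrial genes are transcribed as long polycistronic RNAs by a dedicated polymerase, and the mRNAs are cut out at the tRNAs between them, with MT-ATP8 and MT-ATP6, and MT-ND4L and MT-ND4, left joined as pairs. Nuclear subunits are transcribed gene by gene, under factors that include NRF1, GABPA and YY1.

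All values are FPKM, that is fragments scaled to gene length and to the library total, as the authors deposited them. Totals of fragments on protein-coding genes, recovered from the steps between values, ran from 12.11 to 20.31 M (mega) per library. Genes entered the tests if 2 or more libraries reached 1 FPKM, which 96 members did, all 13 mitochondrial and 83 nuclear. The tests were made with limma on log2(FPKM + 1), with p-values adjusted by the Benjamini-Hochberg method over all 15687 tested genes, two-sided. A member is called higher or lower where this adjusted p is under 0.05, and a log2 difference below is always on the log2(FPKM + 1) scale, which understates changes of genes near 0. The 6 members left untested were COX8C, listed at 0 in all libraries, and COX4I2, COX6B2, COX7A1, ATP5MF-PTCD1 and ATP5MGL, whose highest values were 0.624, 0.0895, 0.255, 0.0911 and 0.432 FPKM.

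Of 10 plasma cell markers, 8 or 9 reached 1 FPKM in every group, while XBP1 was listed at 0 in all 20 libraries. Their summed level was lower with I3MO in U266 (503.6 to 504.8 FPKM with DMSO, 216.6 to 229.8 with I3MO), in RPMI8226 (568.5 to 575.7 and 410.2 to 418.1) and in ARP1 (541.5 to 625.9 and 469.1 to 471.9), and ran from 236.7 to 619.2 in the DMSO libraries of ANBL6BR. T and NK cell markers summed to at most 1.04 FPKM. Monocyte markers summed to 51.4 to 53.9 FPKM in RPMI8226 with DMSO and 32.7 to 32.9 with I3MO, with S100A9 above 1 FPKM, and to at most 4.45 elsewhere. Erythroid markers summed to at most 5.98 FPKM, stromal markers to at most 4.66, and endothelial markers to 9.02 to 27.0 in ANBL6BR, with PECAM1 above 1 FPKM, and at most 4.50 elsewhere. Taken over the members together, replicates differed by far more than counting noise in every group. The chi-square per member ran from 28.3 in ANBL6 DMSO to 343 in ANBL6 I3MO and 745 in ANBL6BR DMSO. It is a mean over members of both genomes, in which genes with many fragments, such as the mitochondrial ones, can weigh most. It therefore does not speak for each member: in ANBL6 DMSO, MT-ND4 had 6965 and 6344 FPKM and ATP5F1B 247.4 and 249.2. The part of these replicate differences in the results below was not tested. Effects of single libraries are given beside the main results on the members, but were not examined for the lists of related genes.

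The libraries were of 2 kinds in their mitochondrial RNA, and the shortest member shows it. MT-ATP8 encodes a small subunit of the membrane part of ATP synthase from 207 bases at MT:8366-8572 (hg38, plus strand), of which the last 46, at 8527 to 8572, also begin MT-ATP6. MT-ND4L encodes a membrane subunit of complex I from 297 bases at MT:10470-10766, of which the last 7 also begin MT-ND4. Both are printed from the reference genome with the shared bases in capitals, since fragments there belong to both genes of a pair.
MT-ATP8: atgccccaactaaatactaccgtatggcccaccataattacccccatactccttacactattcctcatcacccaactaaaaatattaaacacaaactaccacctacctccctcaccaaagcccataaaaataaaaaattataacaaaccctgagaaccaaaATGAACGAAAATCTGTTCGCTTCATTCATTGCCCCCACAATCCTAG
MT-ND4L: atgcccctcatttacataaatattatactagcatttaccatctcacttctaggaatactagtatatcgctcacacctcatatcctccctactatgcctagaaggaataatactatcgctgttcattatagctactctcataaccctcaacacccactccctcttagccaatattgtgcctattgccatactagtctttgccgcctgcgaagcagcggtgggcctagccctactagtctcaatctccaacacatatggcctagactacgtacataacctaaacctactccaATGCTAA
With 161 bases of its own, MT-ATP8 stood at 1595 to 4926 FPKM in the 8 libraries of ANBL6 and ANBL6BR. In the 12 libraries of ARP1, RPMI8226 and U266 it stood at 2.96 to 13.8 FPKM, although MT-ATP6 beside it held 2078 to 6868 FPKM there. MT-ND4L, with 290 bases of its own, was present in both kinds of library, at 629.3 ± 171 FPKM in ARP1, 1201 ± 518 in RPMI8226, 1057 ± 86.6 in U266, 2196 ± 939 in ANBL6BR and 3640 ± 248 in ANBL6 with DMSO (mean ± SD, n = 2). The mitochondrial ribosomal RNAs split the other way: MT-RNR1 was at 0.0729 to 0.593 FPKM in ANBL6 and ANBL6BR and at 630.2 to 1654 FPKM in the other lines, and 13 to 17 of 22 mitochondrial tRNA genes were above 0 in the former against 1 or 2 in the latter. Some nuclear members differed along the same line. With DMSO, NDUFA2 averaged 27.45 and 23.43 FPKM in ANBL6 and ANBL6BR, and 3.56, 4.62 and 4.91 in ARP1, RPMI8226 and U266. NDUFA6 went the other way, at 8.14 and 9.75 against 40.18, 18.5 and 35.34. The number of such members was not counted. Kind of library here and below means this split in the values, as the labels name no different library kit. The split coincides with the dose and with the models, so these cannot be told apart. Where levels of models of both kinds stand side by side below, they are descriptions, and kind of library and model cannot be told apart.

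Within the untreated models the order of the 13 mRNAs differed, also between ANBL6 and ANBL6BR, which share a kind of library. The place of MT-ATP8 followed the kind: rank 4 in ANBL6 and 7 in ANBL6BR, and last in ARP1, RPMI8226 and U266. In ANBL6, MT-ND4 (6655 ± 439 FPKM, n = 2) and MT-CO2 (6283 ± 366) were first and overlapped, followed by MT-CO3 at 4997 ± 291, and MT-ND6, the one member read from the other strand, was last at 966.9 ± 80.2. In ANBL6BR, MT-CO2 was first at 6554 ± 1454 FPKM, and every later neighbour in the order overlapped the next, down to MT-ND1 at 1357 ± 709. ARP1, RPMI8226 and U266 all had the 3 mitochondrially encoded subunits of complex IV on top. First were MT-CO3 at 7221 ± 1708 FPKM in ARP1 and MT-CO2 at 18247 ± 2813 in RPMI8226 and at 12056 ± 907 in U266. In ARP1, MT-CO3 overlapped MT-CO1 and MT-CO1 overlapped MT-CO2. MT-CO3 and MT-CO2 overlapped in RPMI8226, and MT-CO1 and MT-CO3 in U266. MT-ATP8 closed the order in these 3 lines. Leaving MT-ATP8 aside, the lowest were MT-ND6 in ARP1 (302 ± 42.9) and RPMI8226 (842.4 ± 11.2) and MT-ND4L in U266. Within these 3 lines the DMSO level differed between models for 11 of the 13 mitochondrial and 62 of the 83 nuclear members (limma F test, adjusted p under 0.05), against 75.9% of all tested genes. Over the 5 models the counts were 13 and 81, against 90% of all tested genes, and there the kind of library and the model cannot be told apart.

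Compared per kilobase of merged exons rather than as deposited, the median mitochondrial member exceeded the median nuclear member by 5.68 log2 units in ARP1, 6.16 in ANBL6BR, 6.26 in ANBL6, 6.54 in U266 and 6.81 in RPMI8226. In the deposited FPKM the gap is wider, 7.02 to 8.18, because the gene length in use sums the exons of all transcripts and is a median of 2.08 times the merged length for nuclear members but near 1 for mitochondrial genes. On the same per-length scale, ATP5F1B, the catalytic beta subunit of ATP synthase, stood at 955 in ANBL6, 533 in ANBL6BR, 1122 in ARP1, 1042 in RPMI8226 and 565 in U266. NDUFS5, an accessory subunit of complex I, stood at 276 to 648. These values are FPKM recomputed for the merged length.

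With I3MO the mitochondrial mRNAs stood higher in ARP1 and lower in RPMI8226 and U266. Summed over the 13 genes, ARP1 had 37125 and 28224 FPKM with DMSO and 47646 and 45463 with I3MO, a ratio of 1.42. RPMI8226 had 68528 and 81206 FPKM with DMSO and 56096 and 55992 with I3MO, a ratio of 0.749. U266 had 54371 and 54459 FPKM with DMSO and 39310 and 41202 with I3MO, a ratio of 0.74. In these 3 lines the groups did not overlap. ANBL6 had 46537 and 45264 FPKM with DMSO and 68419 and 53817 with I3MO, a ratio of 1.33, again without overlap. In ANBL6BR the values of 26709 and 44466 with DMSO spanned those of 35142 and 38631 with I3MO. As a share of all protein-coding fragments, the mitochondrial members took 2.64% to 3.54% in ARP1 with DMSO and 4.33% to 4.65% with I3MO, and 6.26% to 7.39% against 4.98% to 5.11% in RPMI8226.

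**Figure D1:**
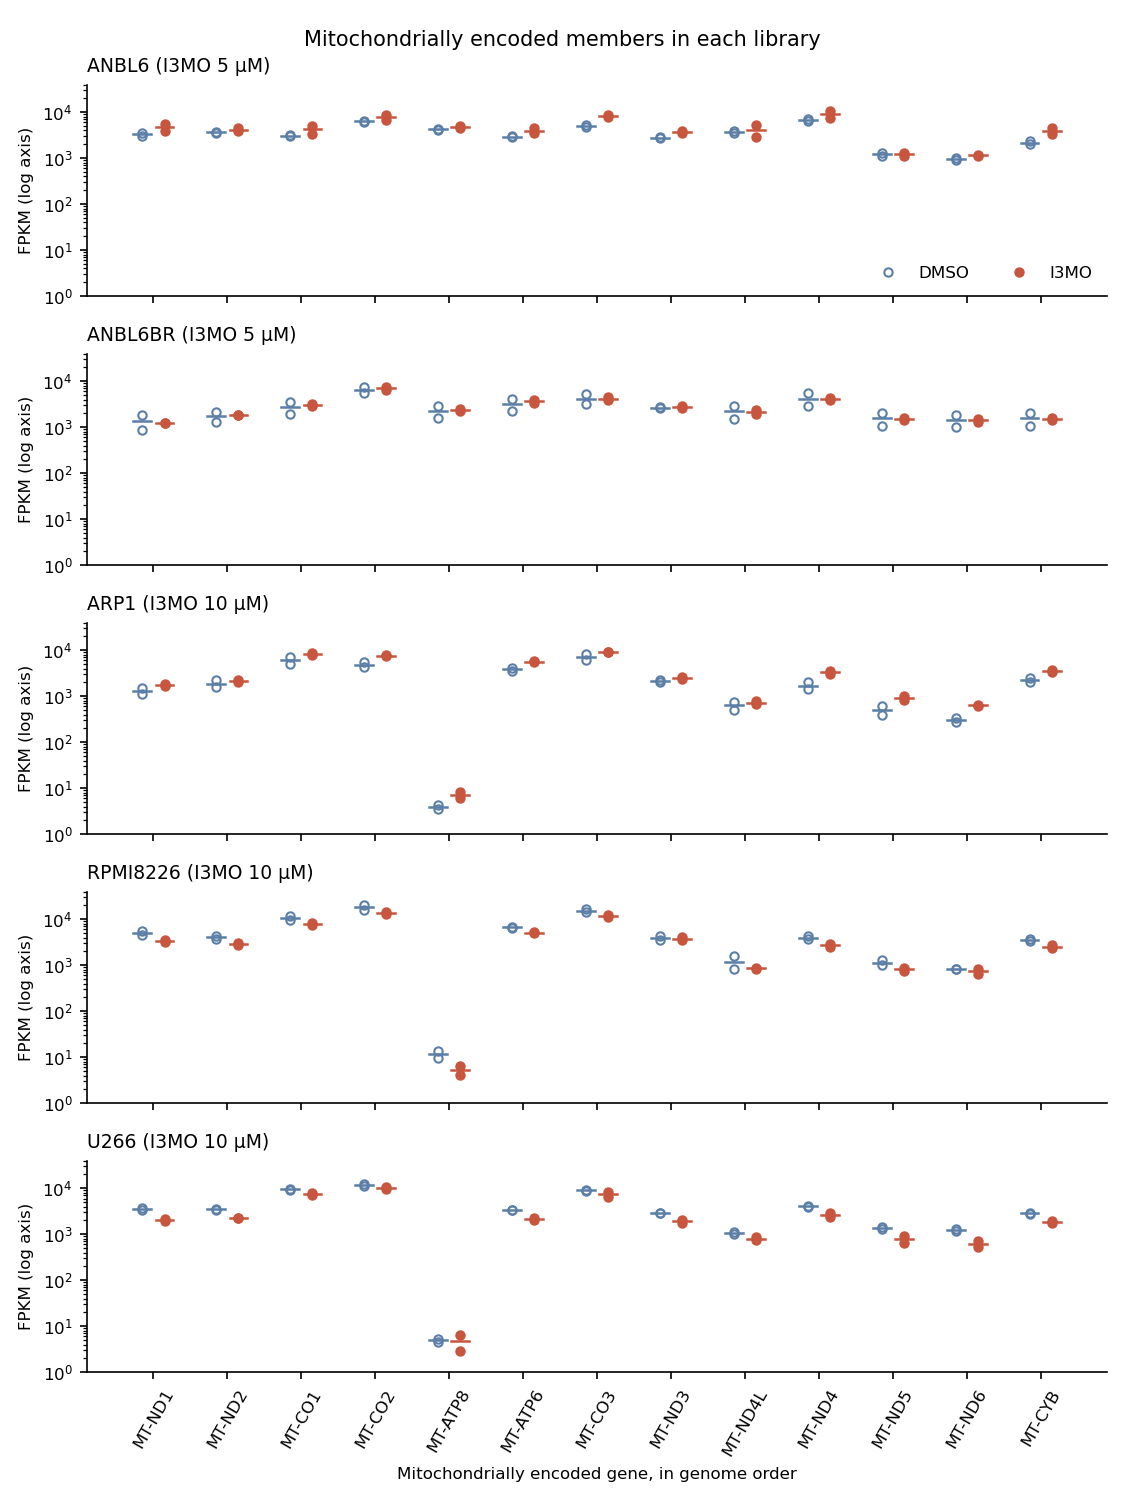
FPKM (log axis) of the 13 mitochondrially encoded genes in the 20 libraries, by model and treatment, with 1 point per library and bars at the means. MT-ATP8 sits at 1595 to 4926 in ANBL6 and ANBL6BR and at 2.96 to 13.8 in the other models, and the I3MO points lie above the DMSO points for most genes in ARP1 and below them in RPMI8226 and U266.

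In ARP1 all 13 log2 differences were positive, with a median of 0.56 against 0.03 over all tested genes, and 5 of the 13 were called higher, where 23.1% of all tested genes were called higher. MT-ND6, a membrane subunit of complex I encoded on the other strand, had 332 and 272 FPKM with DMSO and 620 and 640 with I3MO (log2 difference 1.065 ± 0.24 SE, limma adjusted p = 0.00393). Both I3MO libraries lay above both DMSO libraries. MT-ND4 had 1999 and 1417 FPKM with DMSO and 3611 and 3024 with I3MO (0.97 ± 0.27, limma adjusted p = 0.0125). MT-ND5 had 614 and 394 FPKM with DMSO and 999 and 823 with I3MO (0.88 ± 0.30, limma adjusted p = 0.0345). MT-CYB, the mitochondrial subunit of complex III, had 2447 and 2004 FPKM with DMSO and 3718 and 3304 with I3MO (0.66 ± 0.24, limma adjusted p = 0.0472). MT-CO2, which takes electrons from cytochrome c, had 5494 and 4292 FPKM with DMSO and 7662 and 7700 with I3MO (0.66 ± 0.18, limma adjusted p = 0.0132). None of these groups overlapped, and DMSO replicate 2 was the lowest library for all 5. The call for MT-ND6 held with each of the 20 libraries left out in turn (adjusted p up to 0.0335). The count of 5 became 1 without ARP1 DMSO replicate 2, 1 without ARP1 I3MO replicate 1 and 3 without ARP1 I3MO replicate 2, and the MT-CYB call was lost in 16 of the 20 omissions. With the libraries rescaled by the median ratio over tested genes the median fell to 0.31 and 1 gene was called. That rescaling also changed the split over all called genes, from 62.5% higher to 42.8%.

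In U266 all 13 log2 differences were negative, with a median of -0.60 against -0.02 over all tested genes, and 3 of the 13 were called lower, where 15.8% of all tested genes were. MT-ND6 had 1191 and 1324 FPKM with DMSO and 732 and 524 with I3MO (-1.02 ± 0.24 SE, limma adjusted p = 0.00683). MT-ND3, a small membrane subunit of complex I, had 2927 and 2912 FPKM with DMSO and 1767 and 2089 with I3MO (-0.60 ± 0.13, limma adjusted p = 0.00429). MT-ND2 had 3395 and 3577 FPKM with DMSO and 2308 and 2284 with I3MO (-0.60 ± 0.20, limma adjusted p = 0.0446). The groups of these 3 genes did not overlap. The complex IV genes had smaller differences that did not pass the test: MT-CO1 -0.33, MT-CO3 -0.28 and MT-CO2 -0.26. MT-ND3 was called with each 1 of the 20 libraries left out (adjusted p up to 0.0392), MT-ND6 was lost without U266 DMSO replicate 2 or U266 I3MO replicate 2, and MT-ND2 was lost in 16 of 20 omissions. The count was 1 without either of the 2 libraries named for MT-ND6, and 8 without either DMSO library of ANBL6BR, whose spread enters the pooled error.

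RPMI8226 also had 13 negative log2 differences, with a median of -0.43, but none was called by limma, and 3 had an unadjusted p under 0.05. The smallest adjusted p, 0.0585, belonged to MT-ATP8, which was near 0 in this line (9.52 and 13.8 FPKM with DMSO, 6.58 and 4.06 with I3MO). MT-CO2 had 16258 and 20235 FPKM with DMSO and 14188 and 12822 with I3MO (-0.43 ± 0.18 SE, limma adjusted p = 0.156). Without either DMSO library of ANBL6BR, 3 mitochondrial genes were called in RPMI8226, and without either I3MO library of U266, 1 was.

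In ANBL6 the log2 difference was positive for 12 of 13 and 1 was called higher, beside 4.1% of all tested genes. This was MT-CYB, with 1993 and 2324 FPKM with DMSO and 4516 and 3365 with I3MO (0.86 ± 0.24 SE, limma adjusted p = 0.0484). Its groups did not overlap, but the call was lost in 18 of 20 omissions, with estimates from 0.645 to 1.07. MT-CO3 had 5203 and 4791 FPKM with DMSO and 8874 and 7764 with I3MO (0.73 ± 0.22, limma adjusted p = 0.0659). In ANBL6BR none of the 13 was called by limma and none had an unadjusted p under 0.05. The median there was 0.06, but it was -0.33 without ANBL6BR DMSO replicate 1, and 0.52 with 1 call without ANBL6BR DMSO replicate 2.

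The response of the mitochondrial genes differed between the 3 lines that share a dose and a kind of library. For 8 of the 13 the I3MO responses of ARP1, RPMI8226 and U266 were unequal (limma F test, adjusted p under 0.05, restricted to these lines after seeing the data), against 38.9% of all tested genes. They were MT-ND3, MT-ND4, MT-ND5 and MT-ND6 of complex I, MT-CYB of complex III, MT-CO2 of complex IV and MT-ATP6 and MT-ATP8 of complex V. MT-ATP8 was at only 2.96 to 13.8 FPKM in these lines. Its pooled error rests in part on ANBL6 and ANBL6BR, where it was high. MT-ND6 had the smallest adjusted p, 0.00175. Over all 5 models the count was also 8, where 44.5% of all tested genes were called, and it ran from 4 to 12 with single libraries left out. Of the 83 nuclear members, 20 responded unequally in the 3 lines and 39 in the 5 models, against the same backgrounds.

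In ARP1, RPMI8226 and U266 the log2 ratio of summed mitochondrial to summed nuclear FPKM differed between treatments in the direction of the mitochondrial sum. In ARP1 it was 3.70 and 3.2 with DMSO and 4.34 and 4.03 with I3MO, a difference of 0.74. In RPMI8226 it was 4.26 and 4.55 with DMSO and 3.95 and 4.03 with I3MO, a difference of -0.41. In U266 it was 4.25 and 4.32 with DMSO and 3.91 and 3.94 with I3MO, a difference of -0.36. None of these 3 pairs of groups overlapped, and with 1 library left out the differences ran from 0.49 to 0.99, from -0.56 to -0.27 and from -0.40 to -0.32. ANBL6 (3.601 and 3.568 with DMSO, 3.93 and 3.29 with I3MO) and ANBL6BR (3.24 and 4.20, then 3.92 and 4.05) overlapped between treatments. In ANBL6 both sums were higher with I3MO, the nuclear one at 3836 and 3816 FPKM with DMSO and 4485 and 5485 with I3MO. No test was made on these sums, because the members were chosen with results known.

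**Figure D2:**
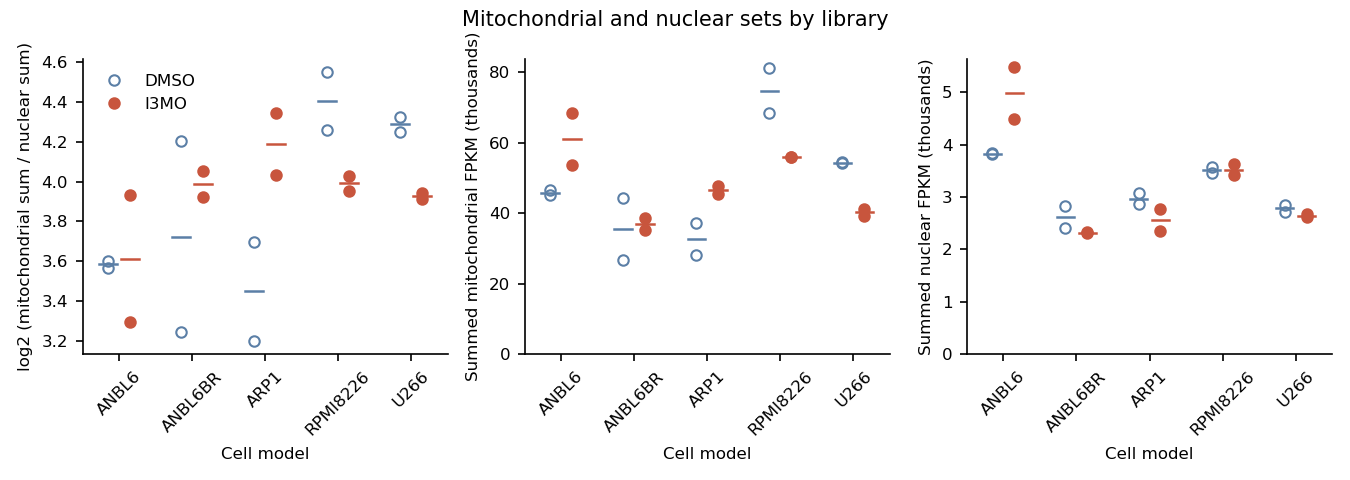
Log2 ratio of summed mitochondrial to summed nuclear FPKM, and each of the sums of FPKM, by model and treatment, with 1 point per library and bars at the means. The ratio is higher with I3MO in ARP1 (0.74) and lower in RPMI8226 (-0.41) and U266 (-0.36), without overlap of the groups, and overlaps in ANBL6 and ANBL6BR.

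More nuclear members were called higher than lower with I3MO in ANBL6, and more lower than higher in each of the other 4 models. In ANBL6, 16 of 83 were called higher and none lower, where 4.1% of all tested genes were called higher and 3.87% lower, and the median log2 difference was 0.30 against 0.01 over all tested genes. In ANBL6BR 2 were called higher and 9 lower, beside 10% and 8.4% of all tested genes. In ARP1 7 were called higher and 17 lower, beside 23.1% and 13.9%. In RPMI8226 1 was called higher and 5 lower, beside 6.19% and 8.62%. In U266 2 were called higher and 12 lower, beside 10.5% and 15.8%. The shares in ANBL6BR, RPMI8226 and U266 are near or under the background, so these counts are no result about the set.

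**Figure D3:**
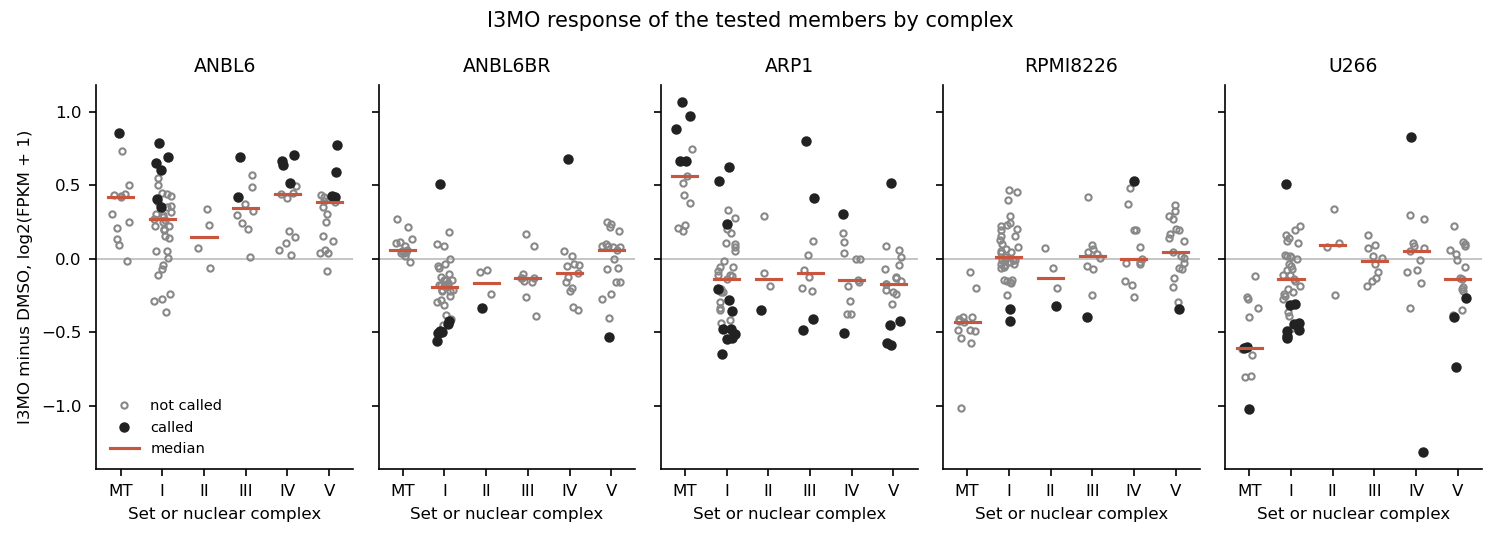
Log2 difference (I3MO minus DMSO, log2(FPKM + 1) scale) of each tested member, by model, in columns for the mitochondrial set (MT) and the nuclear members of complexes I to V, with called members filled and bars at the medians. Nuclear members of all 5 complexes lie mostly above 0 in ANBL6, and mitochondrial members lie above 0 in ARP1 and below 0 in RPMI8226 and U266.

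In ANBL6 the rise spread over complexes I, III, IV and V. Among complex I subunits 6 of 37 were called higher: NDUFA1, NDUFA3, NDUFA10, NDUFB1, NDUFB6 and NDUFV3. NDUFA1, a small membrane subunit needed to assemble complex I, had 242.5 and 232.8 FPKM with DMSO and 352.3 and 421.0 with I3MO (0.69 ± 0.15 SE, limma adjusted p = 0.0166). NDUFB1 had 4.66 and 4.64 FPKM with DMSO and 7.38 and 10.3 with I3MO (0.78 ± 0.175, limma adjusted p = 0.0177). In complex III, 2 of 10 were called higher. UQCRH, the hinge protein that helps cytochrome c1 meet cytochrome c, had 111 and 115 FPKM with DMSO and 170 and 198 with I3MO (0.69 ± 0.105, limma adjusted p = 0.00223). UQCRB was the other, at 7.44 and 7.34 FPKM with DMSO and 9.19 and 11.3 with I3MO (0.42 ± 0.11, limma adjusted p = 0.0405). In complex IV, 4 of 13 tested were called higher, among them COX7A2L, described below, and COX6C. In complex V, 4 of 19 were called higher: ATP5F1E, ATP5MF, ATP5MG and ATP5PO. ATP5F1E, the epsilon subunit of the ATP synthase head, had 19.8 and 19.4 FPKM with DMSO and 31.0 and 37.8 with I3MO (0.78 ± 0.18, limma adjusted p = 0.021). None of the 4 subunits of complex II was called by limma, and 1 of them, SDHB, had an unadjusted p under 0.05.

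All 16 called members had I3MO libraries above their DMSO libraries, and I3MO replicate 2 was above I3MO replicate 1 for each of the genes named above. The number called was 3 without ANBL6 DMSO replicate 1, 2 without ANBL6 DMSO replicate 2, 2 without ANBL6 I3MO replicate 2 and 30 without ANBL6 I3MO replicate 1. Only UQCRH and COX7A2L were called in ANBL6 under each of the 20 omissions, with adjusted p up to 0.0271 and 0.0241. The 2 ANBL6 I3MO libraries listed 32668 and 28419 genes above 0, against 20766 to 26588 in the other 18, and the part of this in the rise was not tested. With median-ratio rescaling 8 of the 16 were called and none other. NDUFA1 shares 44.5% of its exon bases with RNF113A on the opposite strand, UQCRH has a near-identical copy, UQCRHL, and ATP5F1E shares 23.2% with TUBB1, so their levels carry an uncertainty from the assignment of fragments.

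In ARP1 the nuclear subunits moved both ways within complexes. Of complex I, 3 of 37 were called higher and 9 lower, beside 23.1% and 13.9% of all tested genes. NDUFA5, an accessory subunit of the peripheral arm, had 2.49 and 3.39 FPKM with DMSO and 5.10 and 4.96 with I3MO (0.63 ± 0.11 SE, limma adjusted p = 0.000792). NDUFS1, the largest iron-sulphur subunit, had 3.65 and 5.66 FPKM with DMSO and 7.43 and 6.63 with I3MO (0.53 ± 0.13, limma adjusted p = 0.00707). On the other side, NDUFB10, an accessory subunit of the membrane arm, had 64.6 and 65.5 FPKM with DMSO and 37.0 and 46.0 with I3MO (-0.64 ± 0.13, limma adjusted p = 0.00185). The iron-sulphur subunit NDUFS8 and the core subunit NDUFS3 had log2 differences of -0.535 and -0.48 and were also called lower.

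Of complex III in ARP1, 2 of 10 were called higher and 2 lower. These shares are near the 23.1% and 13.9% of all tested genes, so the counts are no result about the complex. UQCRC2, a core subunit of complex III at 16:21952660-21983660 (hg38), had 8.42 and 12.4 FPKM with DMSO and 19.7 and 17.6 with I3MO (0.80 ± 0.125 SE, limma adjusted p = 0.000404). CYC1, which is cytochrome c1, had 60.6 and 67.7 FPKM with DMSO and 42.1 and 49.2 with I3MO (-0.48 ± 0.11, limma adjusted p = 0.00373). UQCRC1, the partner core subunit, had 38.0 and 36.7 FPKM with DMSO and 30 and 34.1 with I3MO and did not pass the test. UQCRC2 responded unequally over ARP1, RPMI8226 and U266 (limma F test, adjusted p = 0.00212), with log2 differences of 0.80, -0.24 and 0.075. In complex V, ATP5PB of the stator stalk was called higher and ATP5F1B, ATP5MC2, ATP5IF1 and ATP5MF lower. ATP5F1B had 309.8 and 273.7 FPKM with DMSO and 203.6 and 223.7 with I3MO (-0.45 ± 0.09, limma adjusted p = 0.0024).

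Calls in ARP1 held under all 20 omissions for 7 of the 24 nuclear members, among them NDUFA5, NDUFB10, NDUFS3, NDUFS8, UQCRC2 and ATP5F1B. Leaving out a library gave 13 calls (without ARP1 DMSO replicate 1), 15 (ARP1 DMSO replicate 2) or 9 (ARP1 I3MO replicate 1). Rescaling by the median ratio gave 2 higher and 37 lower, with 19 of the 24 main calls among them and a median of -0.37 in place of -0.15. The calls over all genes shifted the same way, from 62.5% higher to 42.8%.

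In ANBL6BR the 2 nuclear members called higher were NDUFV3 and COX7A2L. Of the 37 tested members of complex I, 7 were called lower, beside 8.4% of all tested genes. They were NDUFA4, which is counted here by its name, NDUFB4, NDUFB8, NDUFB11, NDUFS5, NDUFS8 and NDUFV2. SDHA of complex II and ATP5IF1 of complex V were also called lower. NDUFV3, a small accessory subunit of the NADH-oxidising module, had 7.99 and 6.26 FPKM with DMSO and 10.5 and 10.5 with I3MO (0.51 ± 0.11 SE, limma adjusted p = 0.00673). NDUFB4 had 19.0 and 19.7 FPKM with DMSO and 13.3 and 13.6 with I3MO (-0.495 ± 0.10, limma adjusted p = 0.00491). The groups of both genes were apart. Calls for NDUFA4, NDUFB4, NDUFS8 and COX7A2L held under all 20 omissions, and NDUFV3 was lost without ANBL6BR DMSO replicate 2 (adjusted p = 0.0527). The number called was 7 without ANBL6BR DMSO replicate 1 and 5 without ANBL6BR I3MO replicate 2. NDUFB4 was also called lower in ARP1 (39.6 and 38.8, then 30.9 and 33.3 FPKM) and U266 (29.3 and 27.9, then 20.8 and 25.2 FPKM), but lost these calls in 14 and 11 of the 20 omissions.

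Across the nuclear members, COX7A2L was the one called higher or lower with I3MO in all 5 models, and it was higher in each. It encodes a relative of the complex IV subunit COX7A2 that is known for joining complex III to complex IV in supercomplexes (ENSG00000115944.13, 2:42333546-42425088, minus strand, hg38). Its promoter is printed below, with that of SDHA and of ATP5IF1, as these genes were among the members called in 1 direction in at least 3 models, as was NDUFB4. FPKM of COX7A2L were 7.95 and 7.80 with DMSO and 12.2 and 14.8 with I3MO in ANBL6. In ANBL6BR they were 16.5 and 15.6, then 24.7 and 27.9. In ARP1 they were 10.9 and 11.7, then 12.8 and 15.6. Each I3MO library stood above each DMSO library of its model. In RPMI8226 the values were 13.5 and 13.2, then 20.5 and 18.9. In U266 they were 32.2 and 30.1, then 54.3 and 57.9. The log2 differences in this order of models were 0.70, 0.68, 0.30, 0.53 and 0.83, each ± 0.105 SE, with limma adjusted p of 0.00205, 0.000864, 0.0396, 0.00457 and 9.09e-05. The call held under every omission in ANBL6, ANBL6BR and U266, was lost without RPMI8226 I3MO replicate 1 (adjusted p = 0.054) and was lost in 7 of 20 omissions in ARP1 (adjusted p up to 0.317). The responses differed between ARP1, RPMI8226 and U266 (limma F test, adjusted p = 0.0364).

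Taking the model as the unit, 5 means against 5, no member was called, beside 0% of all tested genes, and 7 nuclear members and none of the mitochondrial had an unadjusted limma p under 0.05. COX7A2L had the largest of these differences, 0.61, with an adjusted p of 0.107. The 5 models are not independent units, as ANBL6BR is a form of ANBL6, and they mix doses and kinds of library. The estimate was positive in all 5 models for NDUFA10, NDUFV3, UQCRHL, COX7A2L, ATP5MD and ATP5PB, and negative in all 5 for 3 members, NDUFA6 and SDHA among them. Of the mitochondrial members, 11 were positive in 3 models and 2 in 2.

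SDHA, the flavoprotein that oxidises succinate in complex II (ENSG00000073578.15, 5:218241-256700, plus strand, hg38), was called lower in ANBL6BR, ARP1 and RPMI8226. In ANBL6BR it had 7.04 and 5.83 FPKM with DMSO and 5.12 and 4.63 with I3MO (-0.34 ± 0.09 SE, limma adjusted p = 0.0205). In ARP1 it had 9.41 and 9.01, then 6.60 and 7.47 (-0.35 ± 0.09, limma adjusted p = 0.00905). In RPMI8226 it had 15.6 and 15, then 11.8 and 12.3 (-0.32 ± 0.09, limma adjusted p = 0.0301). The groups of each of these models did not overlap. U266, with 4.43 and 4.85, then 3.55 and 3.96, had a log2 difference of -0.25 (limma adjusted p = 0.0628), and ANBL6, with 13.6 and 13.7, then 12.5 and 13.5, one of -0.06. The call was lost without any 1 of the 4 RPMI8226 libraries (adjusted p up to 0.173), without ANBL6BR DMSO replicate 1 or ANBL6BR I3MO replicate 2 (up to 0.166) and without ARP1 DMSO replicate 1 or ARP1 I3MO replicate 1 (up to 0.098). SDHB, SDHC and SDHD were not called in any of the 5 models.

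ATP5IF1 encodes the small protein that blocks ATP hydrolysis by complex V (ENSG00000130770.16, 1:28236109-28246906, plus strand, hg38). It was called lower in U266, ARP1 and ANBL6BR. U266 had 87.3 and 84.8 FPKM with DMSO and 48.3 and 54.4 with I3MO (-0.735 ± 0.15 SE, limma adjusted p = 0.00349). ARP1 had 28.5 and 32.7, then 18.0 and 22.2 (-0.59 ± 0.15, limma adjusted p = 0.01). ANBL6BR had 46.9 and 42.1, then 31.0 and 29.8 (-0.53 ± 0.15, limma adjusted p = 0.0306). In RPMI8226 the groups overlapped, at 53.9 and 36.7 with DMSO and 53.7 and 54.3 with I3MO, and ANBL6 had 79.2 and 81.4, then 76.9 and 89.1. The responses of ARP1, RPMI8226 and U266 differed (limma F test, adjusted p = 0.00664). The U266 call held under all omissions (adjusted p up to 0.0274). The ARP1 call was lost without ARP1 DMSO replicate 2 or I3MO replicate 1, and the ANBL6BR call without any 1 of its 4 libraries (up to 0.154).

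The 3 promoter windows below are the 250 bases before the RefSeq start of each gene (GRCh38.p14), 5' to 3' on the gene's strand: COX7A2L at 2:42361218-42361467 (minus strand), SDHA at 5:218070-218319 and ATP5IF1 at 1:28235874-28236123 (both plus strand). Capitals mark CCAAT, or its reverse complement ATTGG, in COX7A2L and ATP5IF1, and each copy of GCGCAGGCG in SDHA.
COX7A2L: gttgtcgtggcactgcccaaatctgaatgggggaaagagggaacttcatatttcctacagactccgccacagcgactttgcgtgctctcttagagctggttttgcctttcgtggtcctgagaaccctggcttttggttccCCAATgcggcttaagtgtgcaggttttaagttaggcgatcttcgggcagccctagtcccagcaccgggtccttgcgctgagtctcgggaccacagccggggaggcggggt
SDHA: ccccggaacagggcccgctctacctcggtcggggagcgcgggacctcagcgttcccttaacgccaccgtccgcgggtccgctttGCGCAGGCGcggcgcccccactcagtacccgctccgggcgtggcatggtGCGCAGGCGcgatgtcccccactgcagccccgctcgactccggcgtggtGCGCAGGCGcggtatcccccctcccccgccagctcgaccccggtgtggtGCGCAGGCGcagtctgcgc
ATP5IF1: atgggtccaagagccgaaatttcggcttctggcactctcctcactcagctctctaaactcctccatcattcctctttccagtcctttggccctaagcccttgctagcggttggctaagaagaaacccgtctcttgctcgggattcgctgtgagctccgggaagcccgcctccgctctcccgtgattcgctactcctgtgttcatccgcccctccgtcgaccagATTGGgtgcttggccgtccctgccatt
In the SDHA window GCGCAGGCG starts 166, 117, 68 and 19 bases before the RefSeq start of the gene, each copy 49 bases from the next. The gene models that give the coordinates above begin elsewhere: that of SDHA starts at 218241, inside the window, so the copies at 68 and 19 bases lie within it, that of ATP5IF1 starts at 28236109, also inside its window, and the window of COX7A2L lies wholly within its gene model. This motif was chosen after the window had been seen. RefSeq promoters of 300 bases, 250 before and 50 after the start, were matched for 70 of the 89 nuclear members and searched on both strands beside all 27305 promoters of the table. The core NRF1 site GCGCATGCG was in 14.3% of member windows and 2.1% of all. CCGGAAG, the core bound by ETS factors such as GABPA, was in 28.6% and 10.7%, and the YY1 core AAGATGGC in 15.7% and 3.03%. GCGCAGGCG was in 14.3% of member windows and 4.12% of all, the cyclic AMP element TGACGTCA in 7.14% and 1.98%, the E-box CACGTG in 10% and 7.43%, TGATGNAA in 1.43% and 3.67%, and CCAAT in 35.7% of both. None of these motifs contains another. None of the NRF1, ETS or YY1 cores was in the windows of COX7A2L, SDHA or ATP5IF1.

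**Figure D4:**
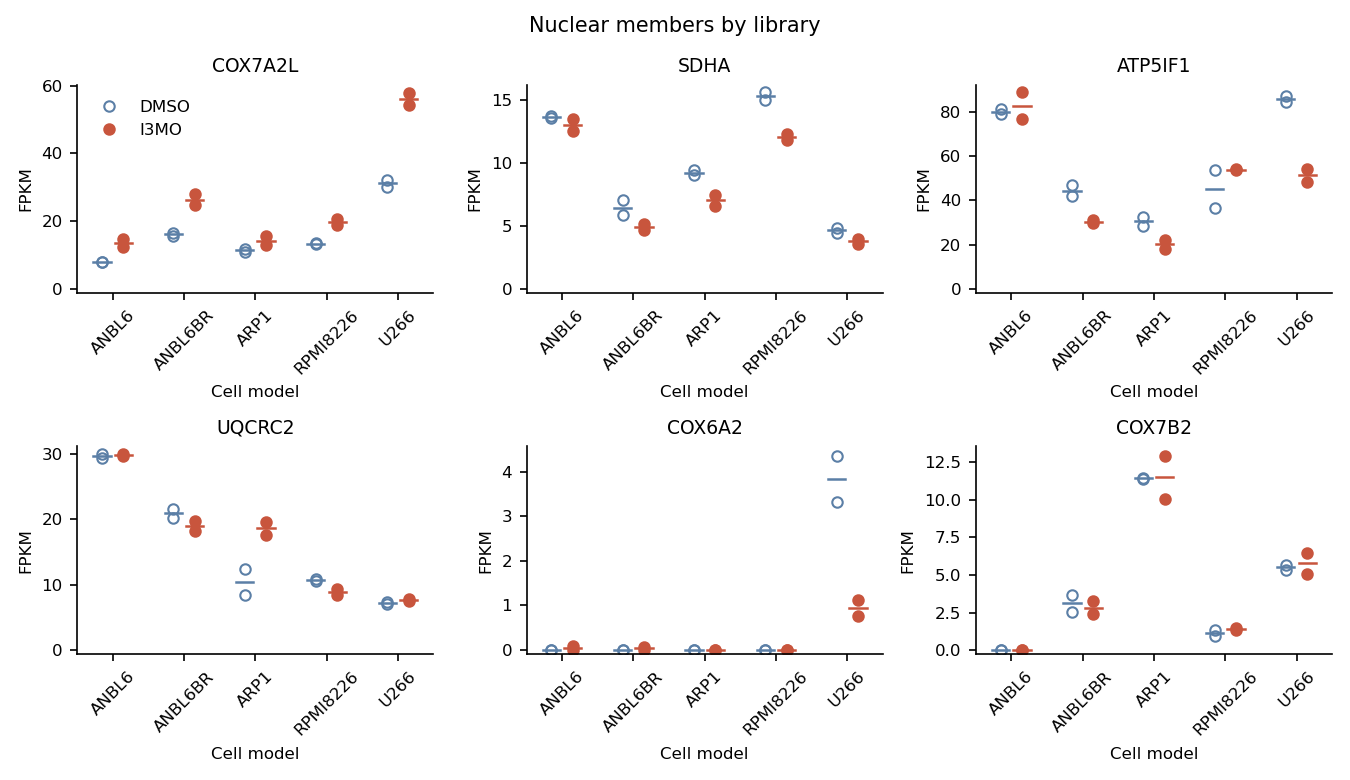
FPKM of COX7A2L, SDHA, ATP5IF1, UQCRC2, COX6A2 and COX7B2 in the 20 libraries, by model and treatment, with 1 point per library and bars at the means. The I3MO points of COX7A2L lie above the DMSO points in each of the 5 models, and COX6A2 is above 1 FPKM in U266 alone.

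Of the 37 members of complex I in U266, 1 was called higher, NDUFA2, and 8 lower, beside 10.5% and 15.8% of all tested genes. Those lower in U266 included NDUFS5, NDUFS1, NDUFB2, NDUFB4, NDUFA7, NDUFA11 and NDUFV2. NDUFS5 had 170.5 and 164.3 FPKM with DMSO and 106.7 and 123.8 with I3MO there (-0.54 ± 0.13, limma adjusted p = 0.00907). NDUFA7 and NDUFV2 were at or under 1.096 FPKM in all 4 libraries of U266 and share 33.5% and 28.4% of their exon bases with other genes. The number of nuclear calls in U266 was 7 without U266 DMSO replicate 1 or 2. In RPMI8226 the 6 calls included COX7A2L, NDUFC1, SDHA, UQCRFS1 and ATP5F1B, and the number of calls was 3, 1, 0 and 2 without its DMSO replicates 1 and 2 and I3MO replicates 1 and 2. With median-ratio rescaling 1 was called higher and 1 lower. UQCRFS1, the Rieske iron-sulphur protein, had 40.2 and 41.1 FPKM with DMSO and 31.4 and 29.8 with I3MO in RPMI8226 (-0.40 ± 0.11, limma adjusted p = 0.0307).

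Several subunits of complex IV have tissue isoforms, and their levels differed between models. COX6A2, the heart and muscle form of subunit VIa, was at or near 0 outside U266 (at most 0.0899 FPKM). In U266 it had 3.32 and 4.35 FPKM with DMSO and 1.12 and 0.774 with I3MO (-1.31 ± 0.11 SE, limma adjusted p = 2.7e-06). Both I3MO libraries were below both DMSO libraries. COX6A2 passed the filter through U266 alone, and the libraries of the other models, at or near 0, enter the pooled error, so the SE and p rest in part on groups without the transcript. It shares 46% of its exon bases with AC026471.5 on the opposite strand. COX6A1, the widely expressed form, had 8.31 and 8.97 FPKM with DMSO and 9.55 and 8.75 with I3MO in U266. In ARP1, COX6A1 had 12.7 and 11.9 FPKM with DMSO and 6.60 and 10.6 with I3MO (-0.50 ± 0.18, limma adjusted p = 0.0493), and this call was lost in 15 of 20 omissions. COX7B2, a form of subunit VIIb known mainly from testis, had 11.4 and 11.5 FPKM in ARP1, 5.34 and 5.69 in U266 and 0.913 and 1.33 in RPMI8226 with DMSO, and was not called with I3MO in any model. COX7A1, COX4I2, COX6B2 and COX8C, the other tissue forms, were among the untested members, and COX4I1, the common form of subunit IV, stood at 15.9 to 31.1 FPKM in the 20 libraries and was not called with I3MO in any model.

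The 3 genes for the same c-ring peptide of ATP synthase, ATP5MC1, ATP5MC2 and ATP5MC3, were not all called in ARP1. ATP5MC2 had 51.0 and 45.5 FPKM with DMSO and 29.98 and 34.19 with I3MO (-0.575 ± 0.14 SE, limma adjusted p = 0.00682). ATP5MC3 had 46.1 and 53.3, then 35.6 and 44.5, and did not pass the test (-0.31, limma adjusted p = 0.0977). ATP5MC1 had 36.1 and 38.0, then 33.4 and 38.7, with overlapping groups. The difference between these genes was not tested. The ATP5MC2 call was lost without ARP1 DMSO replicate 1 or ARP1 I3MO replicate 1 (adjusted p up to 0.0692).

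ANBL6BR and ANBL6 were compared with DMSO and in their responses to the same dose of I3MO. With DMSO, 13 of 83 nuclear members were higher and 37 lower in ANBL6BR, beside 27% and 24.8% of all tested genes, with a median log2 difference of -0.25 against 0 over all tested genes. The lower calls were 11 of 37 members of complex I, 2 of 4 of complex II, 6 of 10 of complex III, 6 of 13 of complex IV and 12 of 19 of complex V. The higher calls were 8 of complex I, 2 of complex IV and 3 of complex V. Complex I had 18 positive and 19 negative log2 differences, with a median of -0.03. Its shares of calls are near those of all tested genes, so these counts are no result about complex I. UQCRH had 111 and 115 FPKM in ANBL6 and 36.9 and 36.7 in ANBL6BR (-1.59 ± 0.105 SE, limma adjusted p = 4.84e-08). COX7B had 73.1 and 72.8 FPKM in ANBL6 and 27.6 and 24.7 in ANBL6BR (-1.45 ± 0.16, limma adjusted p = 6.54e-06). ATP5MC3 had 53.0 and 54.1, then 20.7 and 16.1 FPKM (-1.50 ± 0.14, limma adjusted p = 1.08e-06). None of these groups overlapped. In complex I, NDUFB5 was lower (11.0 and 10.6, then 3.53 and 3.06 FPKM) and NDUFB11 higher (37.1 and 34.6, then 92.4 and 84.6 FPKM). Complex II had SDHA at 13.6 and 13.7, then 7.04 and 5.83, and SDHB at 43.0 and 46.2, then 25.1 and 26.2, both called lower.

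Isoforms differed here too. COX7B2 was at 0.0321 and 0 FPKM in ANBL6 and at 3.66 and 2.55 in ANBL6BR with DMSO (2.00 ± 0.16 SE, limma adjusted p = 2.75e-07). COX7A2L was 0.94 higher in ANBL6BR (limma adjusted p = 7.03e-06), while COX7A2 was called lower, with a difference of -0.68 (60.2 and 59.9, then 40.9 and 33.7 FPKM). ATP5ME, a subunit of the ATP synthase membrane part, had 44.8 and 44.9 FPKM in ANBL6 and 6.49 and 5.56 in ANBL6BR (-2.71 ± 0.11, limma adjusted p = 5.27e-10). In the other lines, which are of the other kind of library, it had at most 1.05 FPKM. It shares 61.6% of its exon bases with MYL5 on the opposite strand, and NDUFB11 shares 44.9% with RBM10, so these values are uncertain. Of the 50 nuclear calls, 40 held under all 20 omissions, and the count ran from 41 to 52.

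Of the mitochondrial members, 4 of 13 were called lower in ANBL6BR with DMSO: MT-ND1, MT-ND2, MT-ND4 and MT-ATP8. This share is near the 24.8% of all tested genes called lower there, so the count is no result about the set. MT-ND1 had 3074 and 3510 FPKM in ANBL6 and 856 and 1858 in ANBL6BR (-1.38 ± 0.28 SE, limma adjusted p = 0.00107). MT-ND2 had 3561 and 3704, then 1327 and 2134 (-1.11 ± 0.20, limma adjusted p = 0.000468). The groups were apart, with ANBL6BR DMSO replicate 1 the lowest library for both genes. The count was 2 without either DMSO library of ANBL6 and 8 without ANBL6BR DMSO replicate 2.

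The response to 5 µM I3MO differed between the resistant and the parental line for 15 of 83 nuclear members, all lower in ANBL6BR, and for none of the mitochondrial members (2 of these had an unadjusted limma p under 0.05). Over all tested genes 4.14% had a higher and 4.33% a lower response in ANBL6BR. NDUFA4 had 42.7 and 40.7 FPKM with DMSO and 49.0 and 61.4 with I3MO in ANBL6, against 65.6 and 77.4, then 47.3 and 49.0 in ANBL6BR (difference of the log2 differences -0.945 ± 0.165 SE, limma adjusted p = 0.00554). UQCRH had 111 and 115, then 170 and 198 in ANBL6, against 36.9 and 36.7, then 30.3 and 31.0 in ANBL6BR (-0.95 ± 0.15, limma adjusted p = 0.00302). For both genes the I3MO libraries lay above the DMSO libraries in ANBL6 and below them in ANBL6BR, without overlap. COX6C had 21.4 and 20.7, then 30.9 and 37.4 in ANBL6, against 18.5 and 17.9, then 13.7 and 14.5 in ANBL6BR (-1.01 ± 0.21, limma adjusted p = 0.0128). By complex the 15 were 8 of complex I (NDUFA3, NDUFA4, NDUFB1, NDUFB4, NDUFB8, NDUFB11, NDUFS5 and NDUFS8), 2 of complex III (UQCRH and UQCR10), 2 of complex IV (COX6C and COX7C) and 3 of complex V (ATP5MC3, ATP5MF and ATP5MG). Calls for NDUFA4, NDUFB4, NDUFB8, NDUFB11 and UQCRH held under all 20 omissions. The count was 8 without ANBL6 DMSO replicate 1, 6 without ANBL6 DMSO replicate 2, 23 without ANBL6 I3MO replicate 1, 5 without ANBL6 I3MO replicate 2, 25 without ANBL6BR DMSO replicate 2 and 8 without ANBL6BR I3MO replicate 2. Without ANBL6BR DMSO replicate 1, 3 mitochondrial members were called. NDUFB8 shares 48.5% of its exon bases with other genes, HIF1AN among them.

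**Figure D5:**
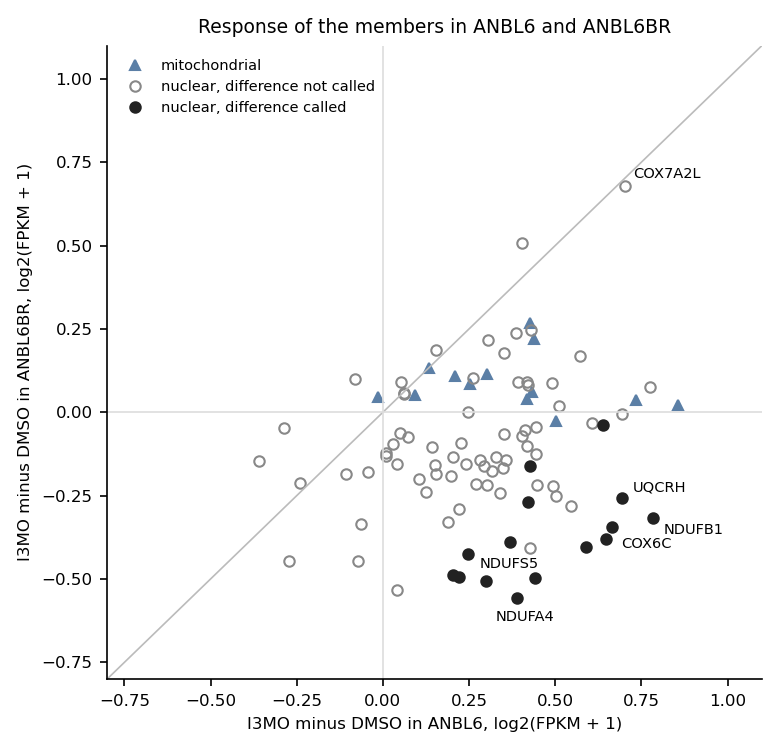
Log2 difference (I3MO minus DMSO) of each tested member in ANBL6 on the horizontal axis and in ANBL6BR on the vertical axis, on the log2(FPKM + 1) scale, with triangles for mitochondrial members and filled circles for nuclear members whose responses differ. The 15 filled nuclear members lie below the diagonal, and COX7A2L lies near it at 0.70 and 0.68.

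Genes that serve the chain without belonging to it are given by list. Their counts stand beside the shares of all tested genes called higher and lower, which were 4.1% and 3.87% in ANBL6, 10% and 8.4% in ANBL6BR, 23.1% and 13.9% in ARP1, 6.19% and 8.62% in RPMI8226 and 10.5% and 15.8% in U266. Many of the counts lie near these shares and are given as descriptions. Alternatives and omissions of libraries were not examined for these lists. In ARP1, median-ratio rescaling changed the share called higher among all called genes from 62.5% to 42.8%. In ARP1, 6 of 15 tested genes for replication and transcription of mitochondrial DNA were called higher and 1 lower, in U266 none higher and 5 lower, and in RPMI8226 none either way. In ANBL6 1 was higher and 2 lower, and in ANBL6BR 1 and 1. The median log2 differences were 0.26 in ARP1, -0.07 in U266 and -0.04 in RPMI8226. TFAM, which packages mitochondrial DNA and starts its transcription, was 0.825 ± 0.135 (SE) higher in ARP1 (limma adjusted p = 0.000541), and TFB1M was lower in U266 (-0.58, limma adjusted p = 0.00126). Of 16 tested genes for mitochondrial RNA processing and stability, 7 were called higher and 2 lower in ARP1, with LRPPRC, which stabilises mitochondrial mRNA, 1.69 ± 0.25 higher (limma adjusted p = 0.000284). In ANBL6 the counts were 0 and 0, in ANBL6BR and RPMI8226 1 and 0, and in U266 2 and 1. Mitochondrial chaperones and proteases had 8 of 14 higher and 1 lower in ARP1, among them GRPEL2 at 1.64 and YME1L1 at 1.35, and the protease LONP1 was called higher in ANBL6BR (0.40), ARP1 (0.51), RPMI8226 (0.87) and U266 (0.90).

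The mitochondrial ribosome, which makes the 13 mitochondrially encoded proteins, had 9 of 76 tested genes higher and none lower in ANBL6, 2 higher and 9 lower in ANBL6BR, 12 and 23 in ARP1, 9 and 1 in RPMI8226 and 6 and 2 in U266. For 12 of them, and for none in the other direction, the response was lower in ANBL6BR than in ANBL6, beside 4.33% of all tested genes lower and 4.14% higher, MRPL40 among them (-0.765 ± 0.13 SE, limma adjusted p = 0.00537). Of 13 tested regulators of mitochondrial biogenesis, 1 was lower in ANBL6, 1 higher and 1 lower in ANBL6BR, 4 and 4 in ARP1, 1 higher in RPMI8226, and 1 higher and 2 lower in U266. NRF1 was lower in ANBL6BR (-0.34), ARP1 (-0.57) and U266 (-0.25), and ESRRA, an orphan receptor that controls oxidative genes, was higher in ANBL6BR (0.64), RPMI8226 (0.63) and U266 (1.03). NDUFA4L2, a paralogue of NDUFA4 outside the naming rule, was higher in ANBL6 (0.94), ANBL6BR (0.66), RPMI8226 (0.88) and U266 (0.65). Assembly factors of complex I had 2 higher and none lower of 19 in ANBL6, 3 and 2 in ANBL6BR, 7 and 4 in ARP1, 2 and 0 in RPMI8226 and 2 and 2 in U266. Assembly factors of complexes II, III and V had 2 of 14 higher in ANBL6, ANBL6BR, ARP1 and RPMI8226 and 3 in U266, with 2 lower in ARP1 and in U266. SDHAF1, which helps load iron-sulphur clusters into SDHB, was among those higher in ANBL6 (0.59), ANBL6BR (0.55) and U266 (0.65). Assembly factors of complex IV had 1 of 23 higher in ANBL6 and in ANBL6BR, 3 higher and 4 lower in ARP1, 2 higher in RPMI8226 and 1 lower in U266. Of 16 tested electron carriers and subunits outside the naming rule, 1 was higher in ANBL6, 4 in ANBL6BR, 6 in ARP1, 3 in RPMI8226 and 1 in U266, with 2, 3 and 3 lower in the last 3 of these. Tricarboxylic acid cycle enzymes had 1 of 19 higher in ANBL6, 1 lower in ANBL6BR, 5 higher and 5 lower in ARP1, 1 and 2 in RPMI8226 and 3 and 3 in U266.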

How the data were processed

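RNA-seq libraries of 5 models with 2 treatments and 2 libraries per group were analysed from the FPKM values the authors deposited, in 1 joint table that equals the 20 single-library tables. Per the submitters' processing notes, Trimmomatic (0.32 and 0.36), STAR, SAMtools and hg38 were used; the counting tool and annotation are not given in the sources used here. Steps between FPKM values gave whole fragments within 0.02 for 100.0% of positive single-exon values, from which totals of 12.11 to 20.31 M were recovered. The lengths solved for 101 members equalled the summed exons of all transcripts in GENCODE 29 for 92, and 56753 of 60483 identifiers had a symbol there. A value of 0 allows up to 3 fragments, counting error only. limma (3.58.1, R 4.3.3) was fitted to log2(FPKM + 1) over all 10 groups with an intensity trend, for 15687 genes at 1 FPKM or more in at least 2 libraries, and the procedure was tested on simulated data. Values of 1 model over another were compared within a kind of library, apart from the tests over all 5 models and levels listed side by side. Alternatives were another pseudocount, no filter, 2 rescalings, a replicate block and omission of each library.

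Members and gene lists were chosen with earlier results of these data known. Genes are named if mitochondrial, an isoform or core subunit of a written list, among the 2 largest called rises or falls of a complex in a comparison, or among the 2 smallest p of a related list. Others were named after their values were seen, for being called in several models or settings. Replicate numbers showed no shared deviation: the correlation of replicate differences with DMSO and with I3MO in a model ran from -0.113 to 0.0342. This cannot establish that the libraries were unpaired. Promoter windows are RefSeq (GRCh38.p14) and mitochondrial sequences are from the hg38 reference. Some results are counted in the totals but not reported by name here.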

Additional observations from a re-analysis of the deposited data

Results flagged for a closer look

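The I3MO response was unequal over the 5 models for 8 of the 13 mitochondrial and 39 of the 83 nuclear members, and over ARP1, RPMI8226 and U266 for 8 and 20 (limma F tests of the difference itself, adjusted p under 0.05). Over all tested genes the shares were 44.5% and 38.9%, so the nuclear counts are near the first and under the second. Over the 5 models, dose and kind of library differ with the model and cannot be told apart from it.

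Between ANBL6BR and ANBL6, which share the dose, 15 nuclear members had a lower log2 response in ANBL6BR, by a limma test of the difference. In complex I these differences were -1.100 for NDUFB1, -1.028 for NDUFA3, -0.945 for NDUFA4, -0.936 for NDUFB11, -0.803 for NDUFS5, -0.717 for NDUFB4, -0.692 for NDUFS8 and -0.671 for NDUFB8. In complex III they were -0.951 for UQCRH and -0.757 for UQCR10, and in complex IV -1.011 for COX6C and -0.677 for COX7C. In complex V they were -0.993 for ATP5MF, -0.691 for ATP5MC3 and -0.587 for ATP5MG. The ANBL6 I3MO libraries, which listed more genes above 0 than the other 18, enter each of these values, and their part was not tested.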

How the results depend on the processing

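No called member among those named by the rule reversed its direction under the alternatives run in the comparison that called it; members not called were not counted. The mitochondrial median in ANBL6BR, which had no test, was -0.33 without its DMSO replicate 1. With pseudocount 0.1, 0 mitochondrial members were called in ANBL6, 3 in ARP1 and 5 in the test of equal responses over 5 models. Without a filter on low values, which tested 44284 genes, mitochondrial calls were 0 in ANBL6, 1 in ARP1, 1 in U266, 2 between ANBL6BR and ANBL6 and 2 in the test of equal responses, and nuclear calls were 15 in ARP1 and 2 in RPMI8226. With median-ratio scaling, mitochondrial calls were 0 in ANBL6, 1 in ARP1 and 4 for equal responses, and nuclear calls 8 in ANBL6, 39 in ARP1 and 2 in RPMI8226. With a replicate block, although the numbers showed no shared deviation, mitochondrial calls were 0 in ANBL6 and 4 for equal responses. Nuclear calls with this block were 2 in ANBL6, 1 in RPMI8226, 8 in U266, 5 for the ANBL6BR minus ANBL6 response and 16 for equal responses. With the ARP1 numbers crossed in that replicate block (chosen after seeing the data), mitochondrial calls were 0 in ANBL6, 3 in ARP1 and 4 for equal responses, and nuclear calls 2 in ANBL6, 7 in ANBL6BR, 9 in U266, 4 for the ANBL6BR minus ANBL6 response and 17 for equal responses. Restricting equal responses to ARP1, RPMI8226 and U266, also chosen after seeing the data, gave 20 nuclear calls. The cause of these changes was not tested, apart from the fewer samples or more genes that some alternatives use by construction. The ratio difference in U266 was -0.473 as a median over members. The gap between median mitochondrial and median nuclear level in deposited FPKM was 7.51 in ANBL6, 7.15 in ANBL6BR, 7.02 in ARP1, 8.18 in RPMI8226 and 7.77 in U266.

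With single libraries left out, mitochondrial calls ran from 0 to 2 in ANBL6, 0 to 1 in ANBL6BR, 1 to 6 in ARP1, 0 to 3 in RPMI8226, 1 to 8 in U266, 2 to 8 between ANBL6BR and ANBL6, 0 to 3 for the difference of their responses and 4 to 12 for equal responses. Nuclear calls ran from 2 to 30 in ANBL6, 5 to 13 in ANBL6BR, 9 to 25 in ARP1, 0 to 8 in RPMI8226, 7 to 16 in U266, 41 to 52 between ANBL6BR and ANBL6, 5 to 25 for the difference of their responses and 23 to 47 for equal responses. Tests of equal DMSO levels kept 13 mitochondrial calls in each omission and had 77 to 81 nuclear calls, and the test across the models had 0. The log2 ratio difference ran from -0.290 to 0.347 in ANBL6, -0.215 to 0.746 in ANBL6BR, 0.491 to 0.989 in ARP1, -0.558 to -0.266 in RPMI8226 and -0.397 to -0.323 in U266. Where an omission left 1 library in a group, it was assumed to vary like the others. With 2 libraries per group, members near the threshold cannot be placed firmly on either side.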
